A study of Mus musculus with 12 samples.

Results

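The genes described here are those of the proteasome, chosen by name and by a floor on counts. A gene was a member when its symbol was Psma, Psmb, Psmc, Psmd, Psme, Psmf or Psmg followed by a digit, its symbol did not carry the pseudogene mark "-ps", and its counts summed over the 12 libraries reached 120. Of the 54 symbols of that form, 4 were pseudogenes and 2 fell under the floor: the testis-type α subunit gene Psma8, with 12 counts in all, and the thymus-type β subunit gene Psmb11, with 0. The other 48, of 46078 annotated genes, were members, and all 48 also passed the filter on low counts used for testing. The floor sat far below them, since the member with the fewest reads, Psmc3ip, had 1132 counts. Of the 48, 5 are the immunoproteasome genes Psmb8, Psmb9, Psmb10, Psme1 and Psme2, and the other 43 serve here as their comparison. By role, the 48 comprised 7 genes of the α ring, 7 constitutive and 3 inducible genes of the β ring, 6 ATPases and 11 non-ATPase subunits of the 19S cap, 5 activators, 1 inhibitor, 7 assembly chaperones and Psmc3ip. Psmc3ip fits the naming rule but encodes a cofactor of meiotic recombination, not a proteasome subunit. No measured value entered the choice other than the summed count.

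The proteasome degrades proteins tagged with ubiquitin. Its 20S core is a barrel of α rings, which gate entry, around β rings, which hold the active sites, and a 19S cap with an ATPase ring unfolds the substrate and feeds it in. Interferons induce 3 alternative catalytic β subunits that take the places of the constitutive ones: Psmb8 that of the chymotrypsin-like Psmb5, Psmb9 that of the caspase-like Psmb6 and Psmb10 that of the trypsin-like Psmb7. The core so formed, the immunoproteasome, is abundant in lymphocytes and is known for producing peptides for MHC class I, and Psme1 and Psme2 form the PA28αβ ring that opens its gate.

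The libraries came from C57BL/6 mouse spleen CD8 T cells kept in culture until day 7, in a study of how cells resembling tissue-resident memory T cells can be made in vitro. All 4 media held the cytokines IL-2 and IL-15, and they differed in what was added: TGFβ with all-trans retinoic acid (TGFβ + RA), TGFβ alone, all-trans retinoic acid alone (RA), or nothing further (IL-2 + IL-15), with 3 libraries of each. The cultures carried no genetic change that the labels name, and the labels call the samples biological replicates without saying whether each came from its own mouse, so the p-values speak only of the spread among these samples. Comparisons with IL-2 + IL-15 share its 3 libraries, and those with TGFβ + RA on top share the same 3 libraries too, so they are not independent of each other.

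The libraries held 18300206 to 33477037 counts in genes, of which the members took 0.501 to 0.524%. RA replicate 3 and IL-2 + IL-15 replicate 1 stood apart from the others of their groups: the chi-square per degree of freedom against the group's other libraries was 24.8 and 21.3 for the RA library, against 8.18 between the other RA libraries, and 13.4 and 9.78 for the IL-2 + IL-15 library, against 4.46. TGFβ + RA replicate 3 held myeloid reads that were nearly missing elsewhere: 323 counts of Lyz2, 97 of S100a8 and 177 of S100a9. Counts and calls that changed without these 3 libraries are given beside each comparison, as values from 9 libraries. The CD8 T cell markers Cd8a, Cd8b1, Cd3d, Cd3e, Cd3g and Trac were abundant in all 12 libraries and themselves differed by medium: summed, they reached 7242 to 7530 counts per 1000000 (CPM) with TGFβ + RA, 6487 to 6756 CPM with TGFβ, 3952 to 4212 CPM with RA and 3884 to 4492 CPM with IL-2 + IL-15. Summed NK cell markers reached 1.01 to 1.54 CPM with TGFβ + RA, 0.658 to 2.03 CPM with TGFβ, 18.2 to 54.7 CPM with RA and 8.54 to 18.8 CPM with IL-2 + IL-15. Summed myeloid markers reached 65.0 to 76.0 CPM with TGFβ + RA, 18.1 to 20.3 CPM with TGFβ, 215 to 369 CPM with RA and 91.6 to 154 CPM with IL-2 + IL-15. Nearly all were Itgax reads, except in TGFβ + RA replicate 3, whose sum also held the Lyz2, S100a8 and S100a9 reads given above. Summed CD4 T cell markers, nearly all Zbtb7b reads, reached 25.7 to 31.3 CPM with TGFβ + RA, 28.9 to 35.1 CPM with TGFβ, 71.8 to 90.05 CPM with RA and 66.2 to 73.9 CPM with IL-2 + IL-15. Summed B cell markers, nearly all Cd79b reads, reached 21.8 to 25.9 CPM with TGFβ + RA, 27.8 to 30.4 CPM with TGFβ, 16.0 to 18.3 CPM with RA and 12.8 to 16.3 CPM with IL-2 + IL-15. Summed γδ T cell markers, nearly all Trdc reads, reached 12.8 to 23.7 CPM with TGFβ + RA, 23.8 to 28.4 CPM with TGFβ, 31.4 to 59.6 CPM with RA and 35.7 to 49.8 CPM with IL-2 + IL-15. The CD4, NK, γδ and myeloid sums thus ran lower and the B cell sum higher in media with TGFβ than in the matching media without it, alongside the member changes below. The means of Ms4a1 and Pax5 were near 0 in all media. Csf1r, Cd14 and Adgre1 had at most 6 counts in any library, and the part of other cell types in the results was not tested. In RNA from whole cultures, fewer cells of a kind and less RNA per cell cannot be told apart.

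The members lie on 16 chromosomes. Psmb8 and Psmb9 sit in the MHC region of chromosome 17 in GRCm38, interleaved with the peptide transporter genes: Psmb9 (17:34181987-34187764, reverse strand) overlaps the divergent Tap1 (17:34187553-34197225, forward strand) by 212 bases at their starts, Psmb8 (17:34197721-34201454, forward strand) begins 495 bases after Tap1 ends, and Tap2 begins 2072 bases beyond Psmb8. Psme1 and Psme2 lie 5911 bases apart on chromosome 14, and Psmb10 lies by itself on chromosome 8. Windows of 300 bases, 250 before the RefSeq start and 50 from it on, were available from RefSeq (GRCm38.p6) for 41 of the 48 members, 44 windows in all. Both strands were searched for the STAT element GAS (TTCNNNGAA), the core of the interferon-stimulated response element (GAAA, any pair of bases, then GAAA again), and the ETS core CCGGAAG, a motif common in promoters of broadly expressed genes. The ETS core was in 16 of 38 windows (42.1%) of members outside the immunoproteasome and in 0 of 6 windows of immunoproteasome genes, against 8.86% of all 32851 windows. GAS was in 1 of 6 immunoproteasome windows, that of Psmb8, and in 2 of the 38 others (Psmd2 and Psmg1), against 8.30% of all windows, and the response element core was in 1 of 6, that of Psme1, and in 4 of 38 (10.5%), against 3.44% of all. The antioxidant response element core TGANNNNGC was in 4 of 6 and 21 of 38 windows (55.3%), against 41.3% of all, and the E-box CACGTG was in 1 of 6, that of Psmb10, and 3 of 38, against 7.15%. The 6 immunoproteasome windows cover 5 genes, because Psme2 has overlapping windows, and these hold the same antioxidant element match. By gene that element was in 3 of 5 and 20 of 36. A match describes the letters and is not a shown binding site, and no match says only that these letters are not in this window.

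The windows of 4 immunoproteasome genes are printed because their genes did not move together, and those of Psme4 and Psmg1 as examples with the ETS core. Each runs 5′ to 3′ on the gene's own strand, with matches to GAS, the response element core and the ETS core in capitals. The Psmb8 window is chr17:34197945-34198244 on the forward strand. The Psmb9 window is chr17:34187281-34187580 on the reverse strand. The Psmb10 window is chr8:105938343-105938642 on the reverse strand. The Psme1 window is chr14:55578244-55578543 on the forward strand. The Psme4 window is chr11:30771525-30771824 on the forward strand. The Psmg1 window is chr16:95990911-95991210 on the reverse strand.
Psmb8: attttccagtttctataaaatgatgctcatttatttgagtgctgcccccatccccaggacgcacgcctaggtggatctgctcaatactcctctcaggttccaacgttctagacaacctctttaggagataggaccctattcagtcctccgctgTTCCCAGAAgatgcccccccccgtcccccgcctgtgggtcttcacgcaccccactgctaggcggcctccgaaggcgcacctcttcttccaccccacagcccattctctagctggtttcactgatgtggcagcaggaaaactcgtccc
Psmb9: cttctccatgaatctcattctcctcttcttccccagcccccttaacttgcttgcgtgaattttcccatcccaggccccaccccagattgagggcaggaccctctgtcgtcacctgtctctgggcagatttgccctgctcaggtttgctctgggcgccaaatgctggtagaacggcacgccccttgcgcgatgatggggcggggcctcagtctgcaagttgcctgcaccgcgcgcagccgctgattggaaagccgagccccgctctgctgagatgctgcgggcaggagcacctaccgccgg
Psmb10: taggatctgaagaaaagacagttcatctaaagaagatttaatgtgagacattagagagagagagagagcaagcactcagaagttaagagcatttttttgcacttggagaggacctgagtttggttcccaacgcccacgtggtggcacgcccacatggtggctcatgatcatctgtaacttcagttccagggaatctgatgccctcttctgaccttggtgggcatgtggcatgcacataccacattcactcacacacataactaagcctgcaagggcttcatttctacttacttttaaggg
Psme1: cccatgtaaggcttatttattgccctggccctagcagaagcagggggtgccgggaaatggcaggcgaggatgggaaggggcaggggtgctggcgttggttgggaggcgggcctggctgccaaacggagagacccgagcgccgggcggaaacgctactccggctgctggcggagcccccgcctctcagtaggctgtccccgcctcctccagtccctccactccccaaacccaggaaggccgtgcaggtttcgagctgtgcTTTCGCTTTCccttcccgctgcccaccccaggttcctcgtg
Psme4: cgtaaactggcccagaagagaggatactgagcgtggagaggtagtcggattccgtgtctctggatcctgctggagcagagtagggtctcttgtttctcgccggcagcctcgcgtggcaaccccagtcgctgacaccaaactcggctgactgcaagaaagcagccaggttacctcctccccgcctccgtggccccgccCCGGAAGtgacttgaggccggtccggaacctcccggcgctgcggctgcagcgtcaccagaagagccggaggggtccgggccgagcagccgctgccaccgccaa
Psmg1: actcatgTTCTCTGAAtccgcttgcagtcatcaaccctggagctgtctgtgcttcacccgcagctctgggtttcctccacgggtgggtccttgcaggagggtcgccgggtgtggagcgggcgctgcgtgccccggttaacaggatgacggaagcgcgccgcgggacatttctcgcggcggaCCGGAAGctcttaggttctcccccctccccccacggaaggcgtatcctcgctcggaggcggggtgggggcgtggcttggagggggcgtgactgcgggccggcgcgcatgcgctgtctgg
Counted from the RefSeq start, GAS in Psmb8 lies at -97 to -89 and the response element core in Psme1 at 9 to 18, on the reverse strand of the window, while no capitals appear in Psmb9 or Psmb10. In Psme4 the ETS core lies at -53 to -47, and Psmg1 has it at -69 to -63 with GAS at -243 to -235. The RefSeq start differs from the GENCODE gene start by 474 bases in Psmb8, 434 in Psmb9, 52 in Psmb10, 371 in Psme1, 49 in Psme4 and 0 in Psmg1, so other starts of the same genes can lie outside these windows.

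On a scale that allows genes to be compared, CPM per kilobase of exon, Psme1, Psmb8 and Psme2 led the family in all 4 media, and the places of Psmb9 and Psmb10 depended on the medium. With TGFβ + RA, Psme1 stood at 179.8 ± 11.5, Psmb8 at 153 ± 7.41, Psme2 at 126 ± 5.15, Psmb10 at 122 ± 6.81 and Psmb9 at 83.2 ± 5.44 (SD, n = 3 throughout), above Psmb2, a structural β subunit and the highest of the other members at 70.6 ± 1.98. With TGFβ the order was Psme1 (160.5 ± 4.36), Psmb8 (142 ± 2.55), Psme2 (135 ± 3.22), Psmb9 (86.9 ± 3.96), Psmb10 (81.1 ± 3.27) and Psmb2 (74.2 ± 4.39). The leading genes stood with RA at 167 ± 3.16, 143 ± 4.09 and 131 ± 2.46, and with IL-2 + IL-15, at 171 ± 2.78, 155 ± 3.57 and 133 ± 6.03. The genes in the next places lay within their spread with RA (Psmb2 84.7 ± 8.002, Psmb10 84.2 ± 1.95), where Psmb9 stood lower at 61.0 ± 7.28, and with IL-2 + IL-15 (Psmb2 81.6 ± 4.94, Psmb9 79.2 ± 4.17, Psmb10 75.6 ± 4.98), while with TGFβ + RA Psmb10 stood level with Psme2. The lowest was Psmc3ip, at 1.48 CPM per kb with TGFβ + RA, 2.21 with TGFβ, 1.49 with RA and 2.83 with IL-2 + IL-15. Next was the 19S assembly chaperone gene Psmd9, at 2.63 CPM per kb with TGFβ + RA, 2.55 with TGFβ, 2.26 with RA and 2.30 with IL-2 + IL-15. By role, the median of the group means with TGFβ + RA was 35.4 CPM per kb for the α ring, 41.2 for the constitutive β ring, 41.0 for the ATPases, 22.1 for the non-ATPase subunits and 9.35 for the assembly chaperones. With IL-2 + IL-15 these medians were 37.0 CPM per kb for the α ring, 48.9 for the constitutive β ring, 44.3 for the ATPases, 24.3 for the non-ATPase subunits and 11.6 for the chaperones. Over the 6 comparisons made below, 34 members were called at least once and 14 never: Psma4, Psma6, Psmb6, Psmc2, Psmc3, Psmc5, Psmd2, Psmd4, Psmd12, Psme2, Psmf1 and the chaperones Psmd5, Psmg3 and Psmg4. Exon length counts every annotated exon of a gene, so levels of genes with long alternative exons are understated.

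With both TGFβ and RA, Psmb10 rose and many constitutive proteasome genes fell slightly, compared with IL-2 + IL-15. The 31 constitutive 20S and 19S genes summed to 2826 ± 40.6 CPM with TGFβ + RA and 3077 ± 129 CPM with IL-2 + IL-15 (SD, n = 3 each), while the 5 immunoproteasome genes summed to 1650 ± 89.96 CPM with TGFβ + RA and 1554 ± 41.3 CPM with IL-2 + IL-15. Calls were made at a Benjamini-Hochberg adjusted p below 0.05, over 14009 genes tested by the quasi-likelihood method of edgeR. On that basis 3 members were higher (6.25% of 48, where 30.8% of all genes tested were higher) and 21 were lower (43.8%, where 32.4% of all genes were lower). The share of lower members was above the background and that of higher ones far below it, and neither gap was tested. The median log2 fold change was 0.07 over the immunoproteasome genes and -0.14 over the other 43, against 0.00 over all genes tested. Of the 5 immunoproteasome genes 1 was called, Psmb10, with means of 207 CPM with TGFβ + RA and 129 CPM with IL-2 + IL-15. The other 4 were not called, so the higher sum does not describe the 5 as a set. Member changes were small: outside Psmb10 and Psmc3ip the called log2 fold changes lay between -0.45 and 0.24, where the median absolute change over all genes tested was 0.37. From the 9 libraries that did not stand apart, 2 members were higher and 16 lower. The count of higher members was 1 without TGFβ + RA replicate 3, and likewise without IL-2 + IL-15 replicate 3.

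**Figure D1:**
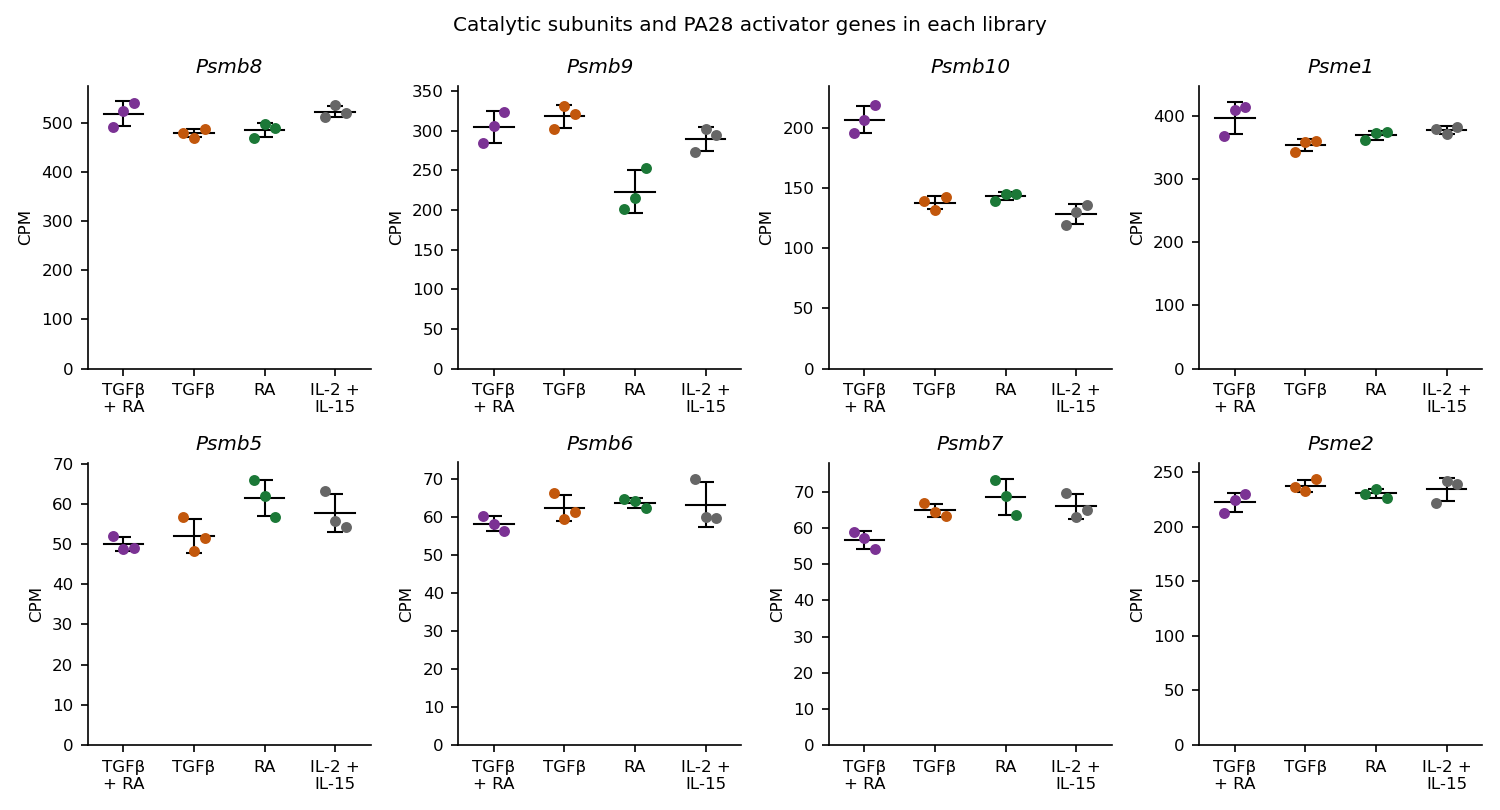
CPM of the 6 catalytic subunit genes and of Psme1 and Psme2 in each library (points), with mean and SD (lines, n = 3), for TGFβ + RA, TGFβ, RA and IL-2 + IL-15 from left to right, each vertical axis starting at 0. The Psmb10 values with TGFβ + RA, 196 to 219 CPM, lie above all others, and the Psmb9 values with RA, 201 to 253 CPM, lie below all others.

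Psmb10, the inducible trypsin-like subunit, had 196, 207 and 219 CPM with TGFβ + RA and 139, 132 and 143 CPM with TGFβ. Without TGFβ, Psmb10 had 139.7, 146 and 145 CPM with RA and 119.7, 130.5 and 136 CPM with IL-2 + IL-15. All 3 TGFβ + RA libraries lay above the other 9, with no overlap. The change was 0.69 ± 0.06 against IL-2 + IL-15 (log2 fold change ± SE, adjusted p = 2.05e-07), 0.59 ± 0.06 against TGFβ (adjusted p = 2.03e-06) and 0.53 ± 0.06 against RA (adjusted p = 3.31e-06), all by edgeR. Neither addition alone gave a call, at 0.10 ± 0.06 for TGFβ (adjusted p = 0.174) and 0.16 ± 0.06 for RA (adjusted p = 0.0606, both edgeR). The RA change was called in 4 of 19 alternatives, among them the fit with the replicate number as a block (0.16, edgeR adjusted p = 0.0259) and DESeq2's Wald test (adjusted p = 0.0467). The interaction, the effect of RA in TGFβ cultures minus its effect without TGFβ, was 0.43 ± 0.08 (log2, edgeR adjusted p = 0.00220), which is itself a call. Psmb10 was the one member called higher in each of the 3 comparisons with TGFβ + RA on top, and those calls held in all 19 alternatives without a minimum fold change. Against a minimum change of 1.5-fold none of them held.

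Psmb9 is the inducible subunit that takes the place of the caspase-like Psmb6. It had 284, 306 and 324 CPM with TGFβ + RA and 302, 331 and 320.3 CPM with TGFβ. Without TGFβ, Psmb9 had 201, 215 and 253 CPM with RA and 273, 302 and 295 CPM with IL-2 + IL-15. The RA libraries were the lowest, and none of them overlapped any other medium. TGFβ lay just above IL-2 + IL-15, and both overlapped TGFβ + RA. The change was -0.38 ± 0.08 for RA against IL-2 + IL-15 (log2 fold change ± SE, edgeR adjusted p = 0.00278) and 0.45 ± 0.08 for TGFβ + RA against RA (edgeR adjusted p = 0.000238). No call was made for TGFβ (0.13 ± 0.08, edgeR adjusted p = 0.183) or TGFβ + RA (0.07 ± 0.08, edgeR adjusted p = 0.433) against IL-2 + IL-15. The decrease with RA was larger, at -0.51 (edgeR adjusted p = 3.36e-05), without the 3 libraries that stood apart, and the interaction, 0.31 ± 0.11 with all libraries and not called (edgeR adjusted p = 0.0615), was then 0.39 and called (edgeR adjusted p = 0.00253). With all 12 libraries it was also called under the replicate block (edgeR adjusted p = 0.0131), with no filter on low counts (edgeR adjusted p = 0.0292) and by DESeq2's Wald test (adjusted p = 0.0428), and in all it was called in 6 of 18 alternatives. Psmb9 shares 5.79% of its exon bases with Tap1 on the opposite strand. Whether the authors counted by strand is not given in the sources used here.

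Psmb8, the inducible chymotrypsin-like subunit, is the neighbour of both Tap1 and Tap2 and had 491, 525 and 540.0 CPM with TGFβ + RA and 479.6, 469.6 and 487 CPM with TGFβ. Without TGFβ, Psmb8 had 469.8, 497 and 489 CPM with RA and 512, 536 and 520.4 CPM with IL-2 + IL-15. TGFβ and RA overlapped each other and both lay below IL-2 + IL-15, while TGFβ + RA lay above TGFβ and overlapped both RA and IL-2 + IL-15. The only call between media was -0.13 ± 0.05 for TGFβ against IL-2 + IL-15 (edgeR adjusted p = 0.0440), which stood in 10 of 19 alternatives. RA gave -0.11 ± 0.05 against IL-2 + IL-15 (edgeR adjusted p = 0.114) and TGFβ + RA gave -0.01 ± 0.05 (edgeR adjusted p = 0.848). The interaction of 0.22 ± 0.07 was called (edgeR adjusted p = 0.0328) but held in 8 of 18 alternatives, and from 9 libraries it was 0.20 (edgeR adjusted p = 0.0501). With RA against IL-2 + IL-15, Tap1 changed by -0.36 ± 0.07 (edgeR adjusted p = 0.00212), a lower call that it shared with Psmb9 but not with Psmb8. With TGFβ + RA against IL-2 + IL-15, Tap2 changed by 0.46 ± 0.05 (edgeR adjusted p = 4.50e-06), where neither Psmb8 nor Psmb9 was called. The 4 genes of this cluster thus did not all share the same calls. The differences between the genes were not tested. Psmb8 shares 14.7% of its exon bases with Gm20496 on the opposite strand.

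The PA28 activator genes gave few calls. Psme1 had 368, 409.6 and 414 CPM with TGFβ + RA and 343, 359.8 and 360.3 CPM with TGFβ. Without TGFβ, Psme1 had 362, 373 and 374 CPM with RA and 380.0, 371 and 383 CPM with IL-2 + IL-15. The TGFβ libraries were the lowest and the other 3 media overlapped each other. The only call was TGFβ + RA against TGFβ, 0.16 ± 0.05 (log2 fold change ± SE, edgeR adjusted p = 0.0167). That call was lost from 9 libraries, at 0.13 (edgeR adjusted p = 0.0586). Psme2, its partner in the ring, had 212, 225 and 229.9 CPM with TGFβ + RA and 236, 233 and 244 CPM with TGFβ. Without TGFβ, Psme2 had 231, 235 and 226 CPM with RA and 222, 242 and 239 CPM with IL-2 + IL-15. It was not called in any of the 6 comparisons, with estimates from -0.10 (TGFβ + RA against TGFβ) to 0.02 (TGFβ against IL-2 + IL-15). From the 9 libraries it was called lower with TGFβ + RA, at -0.14 against IL-2 + IL-15 (edgeR adjusted p = 0.0200) and -0.13 against TGFβ (edgeR adjusted p = 0.0314). Psme2b, a copy of Psme2 on chromosome 11, shares 541 of its 788 windows of 50 bases (68.7%) with Psme2, so reads may be split between them and its values are uncertain. It had 57.1 ± 3.06 CPM with TGFβ + RA and 50.4 ± 1.41 CPM with RA (SD, n = 3 each), its only call (0.18 ± 0.06, edgeR adjusted p = 0.0214), which was lost from 9 libraries (0.14, edgeR adjusted p = 0.0502).

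Set against Psmb7, the constitutive subunit whose place it takes, Psmb10 was highest with TGFβ + RA. The ratio of Psmb10 to Psmb7 per exon length, taken within each library, was 6.66, 7.26 and 8.13 with TGFβ + RA, 4.18, 4.12 and 4.52 with TGFβ, 3.82, 4.23 and 4.59 with RA and 3.44, 4.14 and 4.21 with IL-2 + IL-15. The TGFβ + RA libraries lay above all others, without overlap. On the log2 scale the ratio with TGFβ + RA was higher by 0.90 ± 0.12 than with IL-2 + IL-15, by 0.78 ± 0.09 than with TGFβ and by 0.80 ± 0.11 than with RA (difference ± SE). In each case the exact two-sided permutation test gave p = 0.1, the smallest that 3 against 3 libraries allow, and 0.3 after adjustment over 15 such comparisons, so no ratio could pass a threshold of 0.05. Psmb7 itself had 59.0, 57.2 and 54.1 CPM with TGFβ + RA and 69.8, 63.2 and 65.1 CPM with IL-2 + IL-15, and was called lower (-0.22 ± 0.06, edgeR adjusted p = 0.00564), so both members of the pair moved. Psmb7 shares 11.8% of its exon bases with Nek6 on the opposite strand, so the counts behind the ratio may hold reads of both genes.

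The ratio of Psmb9 to Psmb6 was 2.69 ± 0.265 with TGFβ + RA, 2.62 ± 0.260 with TGFβ, 1.80 ± 0.252 with RA and 2.36 ± 0.324 with IL-2 + IL-15 (SD, n = 3 each). The RA libraries lay below those with TGFβ + RA without overlap (0.58 ± 0.14 for TGFβ + RA minus RA, log2 difference ± SE, exact permutation p = 0.1), but overlapped those with IL-2 + IL-15 (-0.40 ± 0.17 for RA minus IL-2 + IL-15, exact permutation p = 0.2). The ratio of Psmb8 to Psmb5 was 2.76 ± 0.226 with TGFβ + RA, 2.45 ± 0.177 with TGFβ, 2.11 ± 0.197 with RA and 2.42 ± 0.228 with IL-2 + IL-15 (SD, n = 3 each), and again TGFβ + RA and RA did not overlap (0.39 ± 0.11 for TGFβ + RA minus RA, log2 difference ± SE, exact permutation p = 0.1). Together the inducible genes made up 77.6 ± 1.56% of the summed level per length of the 6 catalytic genes with TGFβ + RA, 73.8 ± 1.34% with TGFβ, 70.2 ± 2.05% with RA and 72.5 ± 2.33% with IL-2 + IL-15 (SD, n = 3 each). The inducible genes held most of the catalytic mRNA in all media. The 3 TGFβ + RA libraries had the highest shares, and the other 3 media overlapped.

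**Figure D2:**
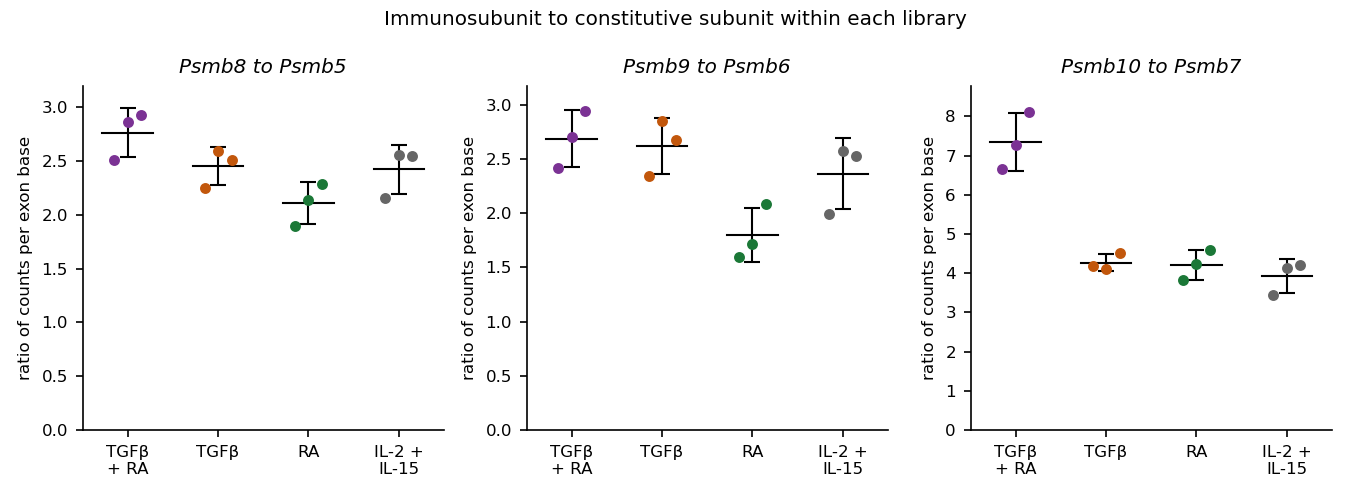
Within-library ratio of each inducible subunit gene to the constitutive one it replaces, in counts per exon base (points, one per library), with mean and SD (lines, n = 3), for TGFβ + RA, TGFβ, RA and IL-2 + IL-15 from left to right. The ratio of Psmb10 to Psmb7 is 6.66 to 8.13 with TGFβ + RA and at most 4.59 in the other media.

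Among the constitutive subunits of the core, 5 of 7 genes of the β ring were lower with TGFβ + RA than with IL-2 + IL-15 (Psmb1, Psmb2, Psmb3, Psmb5 and Psmb7), and so were 2 of 7 of the α ring (Psma3 and Psma7). None of the 14 was higher. Over all genes 32.4% were lower, a share that the β ring exceeded and the α ring did not, and the difference between the rings was not tested. From 9 libraries the calls of Psmb3 (-0.12, edgeR adjusted p = 0.108), Psma3 (-0.11, edgeR adjusted p = 0.0902) and Psma7 (-0.17, edgeR adjusted p = 0.0634) were lost, as was that of Psmb5, below. Psmb1, a non-catalytic β subunit, had 182, 189 and 172 CPM with TGFβ + RA and 181, 177 and 180.3 CPM with TGFβ. Without TGFβ, Psmb1 had 249, 246 and 216 CPM with RA and 244, 217 and 212 CPM with IL-2 + IL-15. Both media with TGFβ lay below both media without it, with no overlap (log2 fold change ± SE of -0.31 ± 0.07, adjusted p = 0.000937 for TGFβ + RA, and log2 fold change ± SE of -0.32 ± 0.07, adjusted p = 0.00129 for TGFβ, against IL-2 + IL-15, edgeR). Of the constitutive catalytic subunits, the chymotrypsin-like Psmb5 had 52.1, 48.8 and 49.0 CPM with TGFβ + RA and 56.6, 48.2 and 51.5 CPM with TGFβ. Without TGFβ, Psmb5 had 65.8, 61.9 and 56.8 CPM with RA and 63.1, 55.7 and 54.3 CPM with IL-2 + IL-15. All TGFβ + RA values lay below those of IL-2 + IL-15 and overlapped those of TGFβ. Its call against IL-2 + IL-15 (-0.21 ± 0.07, edgeR adjusted p = 0.0263) was lost from 9 libraries, at -0.13 (edgeR adjusted p = 0.135). Psmb6, the caspase-like subunit, had 58.1 ± 1.96 CPM with TGFβ + RA, 62.3 ± 3.48 CPM with TGFβ, 63.6 ± 1.27 CPM with RA and 63.2 ± 5.90 CPM with IL-2 + IL-15 (SD, n = 3 each) and was not called in any comparison. Called changes of core genes between TGFβ + RA and IL-2 + IL-15 ran from -0.31 (Psmb1) to -0.14 (Psma3).

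In the 19S cap, 3 of 6 ATPase genes (Psmc1, Psmc4 and Psmc6) and 6 of 11 non-ATPase genes (Psmd1, Psmd6, Psmd7, Psmd8, Psmd13 and Psmd14) were lower with TGFβ + RA than with IL-2 + IL-15, and none of the 17 was higher, where 32.4% of all genes were lower. The calls of Psmc1 (-0.11, edgeR adjusted p = 0.0599) and Psmd8 (-0.13, edgeR adjusted p = 0.135) were lost from 9 libraries. Psmd14, the deubiquitinase that removes the tag from substrates, had 50.2, 58.8 and 50.9 CPM with TGFβ + RA and 62.2, 63.7 and 59.3 CPM with TGFβ. Without TGFβ, Psmd14 had 68.2, 71.8 and 62.0 CPM with RA and 69.1, 67.2 and 69.0 CPM with IL-2 + IL-15. All 3 TGFβ + RA libraries lay below the other 9 for Psmd14, and TGFβ overlapped RA. Psmd7, its partner in the lid, had 51.3, 49.98 and 48.7 CPM with TGFβ + RA and 56.8, 53.9 and 54.5 CPM with TGFβ. Without TGFβ, Psmd7 had 59.7, 63.2 and 59.5 CPM with RA and 62.4, 62.0 and 62.1 CPM with IL-2 + IL-15. Psmd7 was lowest with TGFβ + RA and next lowest with TGFβ, and RA overlapped IL-2 + IL-15. Against IL-2 + IL-15, TGFβ + RA changed Psmd14 by -0.36 ± 0.07 (edgeR adjusted p = 0.000370) and Psmd7 by -0.32 ± 0.04 (edgeR adjusted p = 2.99e-05). Psmd1, the large scaffold of the cap's base, had 55.0, 55.2 and 56.1 CPM with TGFβ + RA and 72.2, 65.3 and 70.0 CPM with TGFβ. Without TGFβ, Psmd1 had 67.9, 68.4 and 64.5 CPM with RA and 68.5, 70.3 and 67.2 CPM with IL-2 + IL-15. Here only the combination stood apart, below all other libraries and by -0.31 ± 0.05 against IL-2 + IL-15 (log2 fold change ± SE, edgeR adjusted p = 7.20e-05), -0.32 ± 0.05 against TGFβ (edgeR adjusted p = 0.000104) and -0.27 ± 0.05 against RA (edgeR adjusted p = 0.000253). Its interaction was -0.28 ± 0.07 (edgeR adjusted p = 0.00977).

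Of the activators, Psme3 and Psme4 fell with TGFβ + RA, while Psme1, Psme2 and Psme2b were not called against IL-2 + IL-15. Psme4 (PA200), a nuclear activator known in chromatin maintenance and spermatogenesis, had 111, 109 and 102 CPM with TGFβ + RA and 128, 126 and 128 CPM with TGFβ. Without TGFβ, Psme4 had 138, 127 and 125 CPM with RA and 132, 138 and 134 CPM with IL-2 + IL-15. Only TGFβ + RA stood below all others (log2 fold change ± SE of -0.33 ± 0.05, adjusted p = 6.43e-05, edgeR, against IL-2 + IL-15). Psme3 (PA28γ), the nuclear member of the PA28 family, had 168, 161 and 163 CPM with TGFβ + RA and 176, 164 and 167 CPM with TGFβ. Without TGFβ, Psme3 had 192, 186 and 187 CPM with RA and 189, 184 and 191 CPM with IL-2 + IL-15. Both media with TGFβ lay below both without it (log2 fold change ± SE of -0.20 ± 0.04, adjusted p = 0.00108 for TGFβ + RA, and log2 fold change ± SE of -0.16 ± 0.04, adjusted p = 0.00811 for TGFβ, against IL-2 + IL-15, edgeR). Psmf1 (PI31), described as an inhibitor of the core, had 47.9, 47.4 and 50.2 CPM with TGFβ + RA and 39.8, 49.998 and 42.6 CPM with IL-2 + IL-15, which overlapped, and was called in none of the 6 comparisons.

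The assembly chaperones split. Psmg1 and Psmg2, which form the dimer that starts the α ring, were lower with TGFβ, and 2 chaperones of the 19S base were higher with TGFβ + RA. Psmg1 had 12.6, 12.6 and 12.5 CPM with TGFβ + RA and 7.77, 8.51 and 10.2 CPM with TGFβ. Without TGFβ, Psmg1 had 17.4, 21.6 and 18.2 CPM with RA and 15.2, 16.4 and 15.4 CPM with IL-2 + IL-15. It was lowest with TGFβ, intermediate with TGFβ + RA and highest with RA, and none of the 4 media overlapped another. TGFβ changed it by -0.83 ± 0.11 (edgeR adjusted p = 3.09e-05), TGFβ + RA by -0.32 ± 0.10 (edgeR adjusted p = 0.0161) and RA by 0.29 ± 0.10 (edgeR adjusted p = 0.0488) against IL-2 + IL-15, and TGFβ + RA stood 0.51 ± 0.11 above TGFβ (log2, edgeR adjusted p = 0.00175). Psmg2 had 22.6, 22.6 and 22.3 CPM with TGFβ + RA and 23.5, 25.4 and 26.1 CPM with TGFβ. Without TGFβ, Psmg2 had 31.1, 33.8 and 33.2 CPM with RA and 30.5, 31.7 and 30.3 CPM with IL-2 + IL-15. Both media with TGFβ lay below both without it, by -0.45 ± 0.06 for TGFβ + RA (edgeR adjusted p = 1.28e-05) and -0.30 ± 0.06 for TGFβ (edgeR adjusted p = 0.000853) against IL-2 + IL-15, and here the combination was the lower of the pair (-0.15 ± 0.06 against TGFβ, edgeR adjusted p = 0.0476). That last call stood in 8 of 19 alternatives and was lost by DESeq2's size factors, by its Wald test, with no filter on low counts and from 9 libraries (-0.15, edgeR adjusted p = 0.0981). Of the chaperones of the 19S base, Psmd9 (0.20 ± 0.08, edgeR adjusted p = 0.0376) and Psmd10 (0.24 ± 0.09, edgeR adjusted p = 0.0353) were higher with TGFβ + RA than with IL-2 + IL-15. Psmd9 had 18.5, 18.9 and 19.9 CPM with TGFβ + RA and 15.3, 18.6 and 16.1 CPM with IL-2 + IL-15, which overlapped. Psmd10 had 28.1, 25.1 and 25.8 CPM with TGFβ + RA and 25.2, 20.2 and 21.2 CPM with IL-2 + IL-15, which also overlapped. From 9 libraries the Psmd9 call was lost, at 0.11 (edgeR adjusted p = 0.306), and Psmd9 shares 25.5% of its exon bases with an opposite-strand gene. Psmc3ip, the recombination cofactor, had 2.65, 2.13 and 3.31 CPM with TGFβ + RA and 4.29, 3.17 and 4.60 CPM with TGFβ. Without TGFβ, Psmc3ip had 2.55, 2.75 and 2.85 CPM with RA and 4.996, 5.29 and 5.16 CPM with IL-2 + IL-15. Against IL-2 + IL-15 it was lower in both media with RA (log2 fold change ± SE of -0.94 ± 0.18, adjusted p = 0.000391 for TGFβ + RA, and log2 fold change ± SE of -0.92 ± 0.18, adjusted p = 0.00161 for RA, edgeR). It shares 21.2% of its exon bases with Mlx on the opposite strand.

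**Figure D3:**
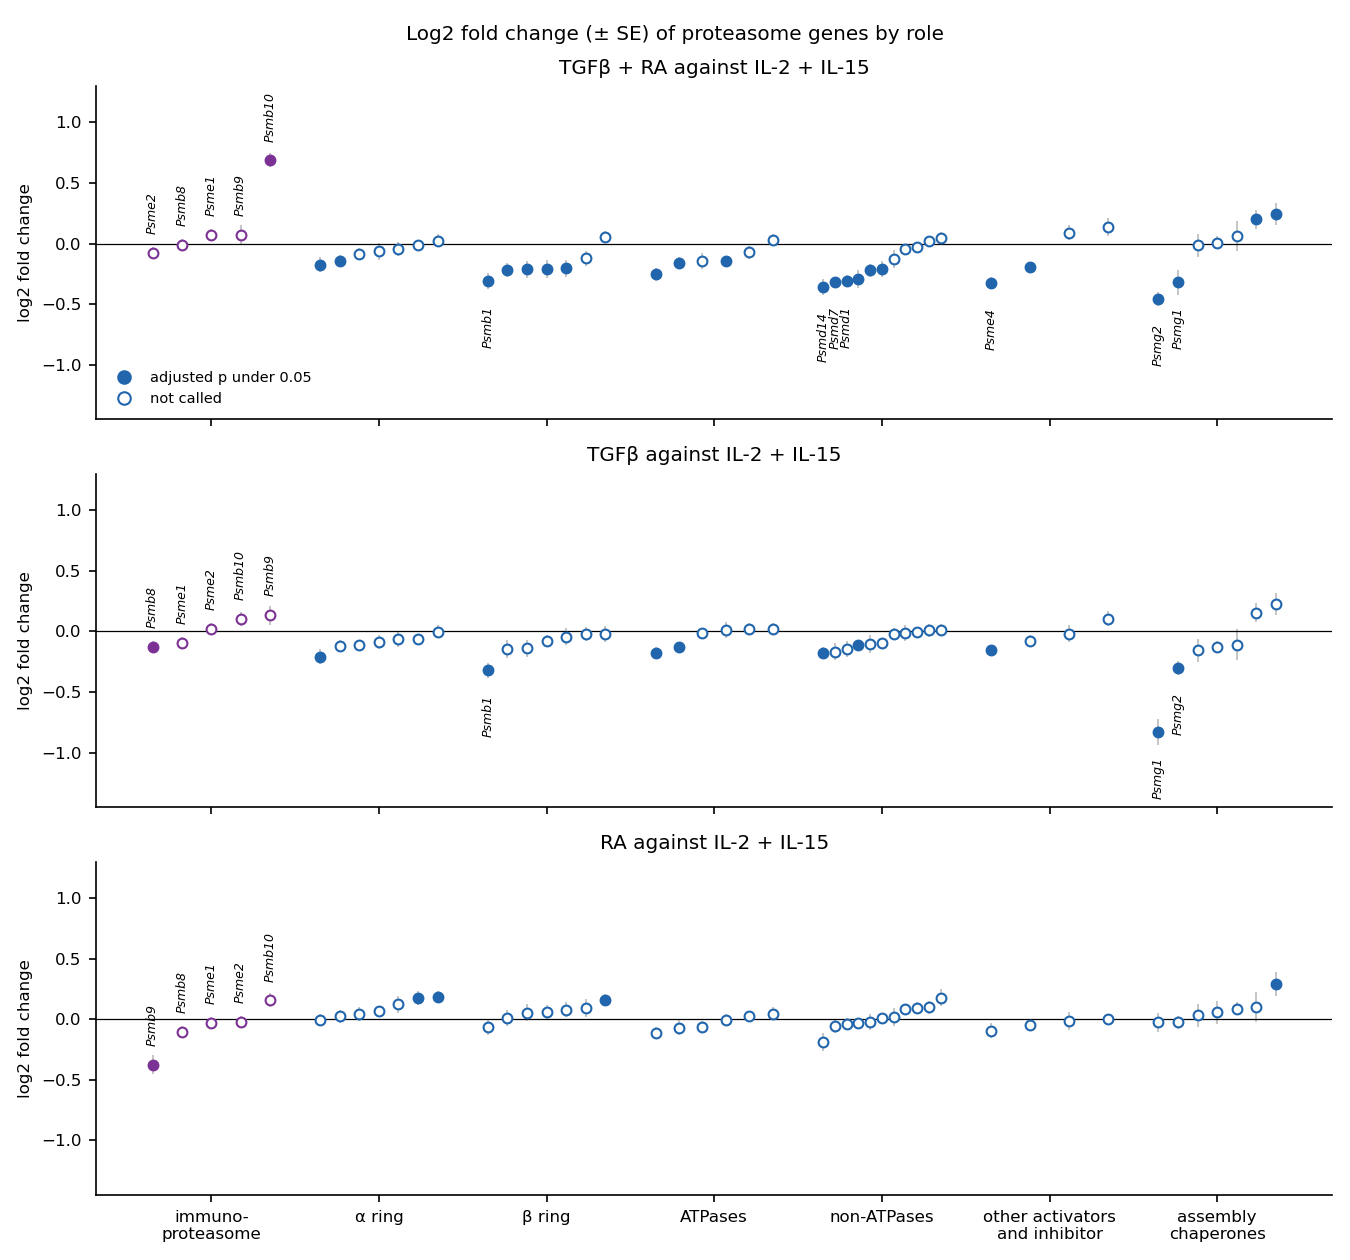
Log2 fold change (vertical axis, bars ± SE) of 47 members, Psmc3ip left out, grouped by role along the horizontal axis, for TGFβ + RA, TGFβ and RA against IL-2 + IL-15 from top to bottom; filled points have an edgeR adjusted p under 0.05 and purple points are immunoproteasome genes. Psmb10 stands alone at 0.69 in the upper panel, where most filled points lie below 0, and Psmg1 is the lowest point of the middle panel at -0.83.

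TGFβ alone lowered a smaller set of members and raised none. Against IL-2 + IL-15, 10 of 48 members were lower (20.8%, where 22.4% of all genes tested were lower) and 0 were higher, where 20.7% of all genes were higher. The count of lower members was thus near the background, while that of higher members was below it. At an unadjusted p below 0.05 in edgeR's test 1 member was higher, the chaperone Psmd10, and DESeq2's Wald test called 0. The lower members were Psma7 and Psmb1 of the core, Psmc1, Psmc6, Psmd7 and Psmd11 of the cap, the activator Psme3, the inducible Psmb8, and the chaperones Psmg1 and Psmg2, with changes from -0.83 (Psmg1) to -0.11 (Psmd11). The largest were Psmg1, Psmb1 and Psmg2, followed by the α subunit gene Psma7 (-0.21 ± 0.06, edgeR adjusted p = 0.0116) and the ATPase gene Psmc6 (-0.18 ± 0.05, edgeR adjusted p = 0.0128). The constitutive 26S genes summed to 2902 ± 75.2 CPM with TGFβ and 3077 ± 129 CPM with IL-2 + IL-15, and the immunoproteasome genes to 1527 ± 26.5 CPM with TGFβ and 1554 ± 41.3 CPM with IL-2 + IL-15 (SD, n = 3 each). From 9 libraries 8 members were lower and 1 higher, where 22.1% of all genes were lower and 20.8% higher. The calls of Psmc1 (-0.10, edgeR adjusted p = 0.0773) and Psmd11 (-0.10, edgeR adjusted p = 0.0690) were lost there. Leaving out single libraries gave 6 to 11 lower, the 6 without TGFβ replicate 2 and, separately, without IL-2 + IL-15 replicate 1. With any of TGFβ replicate 2, RA replicate 3 and IL-2 + IL-15 replicates 1 and 2 left out, 1 member was higher.

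RA alone lowered Psmb9 and Psmc3ip and slightly raised 4 members. Against IL-2 + IL-15, 2 of 48 were lower (4.17%, where 14.3% of all genes tested were lower) and 4 were higher (8.33%, where 12.4% of all genes were higher). Both shares were below the background. The 4 were the α subunit genes Psma1 (0.17 ± 0.06, edgeR adjusted p = 0.0454) and Psma5 (0.18 ± 0.05, edgeR adjusted p = 0.0188), the β subunit gene Psmb4 (0.16 ± 0.05, edgeR adjusted p = 0.0281) and the chaperone Psmg1. Psma1 had 111, 106 and 93.4 CPM with RA and 91.7, 93.7 and 89.97 CPM with IL-2 + IL-15, and RA replicate 3 lay among the IL-2 + IL-15 values. This count of higher members rests on which libraries enter. It was 13 from the 9 libraries that did not stand apart, where 15.7% of all genes were higher and Psmg1 was no longer called (0.32, edgeR adjusted p = 0.0783), 1 with no filter on low counts, 0 without RA replicate 2, 1 when either IL-2 + IL-15 replicate 2 or replicate 3 was left out, and 2 without TGFβ + RA replicate 2 or TGFβ replicate 2. None of the 4 calls held in every alternative, while both lower calls held in all but the one that asked for a 1.5-fold change. From 9 libraries 3 members were lower, where 16.4% of all genes were lower. The immunoproteasome genes summed to 1452 ± 43.9 CPM with RA and 1554 ± 41.3 CPM with IL-2 + IL-15, and the constitutive 26S genes to 3174 ± 121 CPM with RA and 3077 ± 129 CPM with IL-2 + IL-15 (SD, n = 3 each).

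Adding RA to TGFβ cultures again raised Psmb10. It also lowered 6 of the 17 genes of the 19S cap (35.3%), a share that was not tested against that of all genes. With TGFβ + RA against TGFβ, 4 of 48 members were higher (8.33%, where 20.3% of all genes tested were higher) and 10 were lower (20.8%, where 22.7% of all genes were lower). The share of lower members was near the background and that of higher ones below it. The higher members were Psmb10, Psmg1, Psme1 and Psmb4 (0.13 ± 0.05, edgeR adjusted p = 0.0427). Of the lower ones, 5 were non-ATPase subunits (Psmd1, Psmd6, Psmd7, Psmd8 and Psmd14), 1 was the ATPase gene Psmc4 and 1 the trypsin-like Psmb7, beside Psme4, Psmg2 and Psmc3ip. Psmd6, a subunit of the lid, changed by -0.23 ± 0.05 (edgeR adjusted p = 0.00361) and Psme4 by -0.25 ± 0.05 (edgeR adjusted p = 0.00122). Of the cap genes, Psmd1 and Psmd6 kept their calls in all alternatives without a minimum fold change. Those of Psmc4, Psmd7, Psmd8 and Psmd14 were lost in some. Leaving out single libraries gave 4 to 13 lower members: 4 without TGFβ replicate 1, 6 without TGFβ replicate 3, 6 without TGFβ + RA replicate 1 or 2 and 5 without TGFβ + RA replicate 3. The count of higher members was 2 without TGFβ replicate 1 or TGFβ + RA replicate 3. From 9 libraries 3 members were higher and 11 lower, where 20.4% of all genes were higher and 23.1% lower. The calls of Psme1, Psmg2 and Psmd7 (-0.13, edgeR adjusted p = 0.0603) were lost there.

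Adding TGFβ to RA cultures lowered 17 of the 31 constitutive 26S genes and raised none of them. With TGFβ + RA against RA, 21 of 48 members were lower (43.8%, where 30.8% of all genes tested were lower) and 4 were higher (8.33%, where 29.4% of all genes were higher). The share of lower members was above the background and that of higher ones below it, a difference that was not tested. The lower members included 5 of 7 α genes, 4 of 7 β genes, 2 of 6 ATPases and 6 of 11 non-ATPase subunits, and the largest changes were Psmg1 (-0.61), Psmg2 (-0.54), Psmb1 (-0.39), Psmd8 (-0.39) and Psmd14 (-0.34), each with an edgeR adjusted p of at most 0.000699. The higher members were Psmb10, Psmb9, Psmd9 and Psme2b. The constitutive 26S genes summed to 2826 ± 40.6 CPM with TGFβ + RA and 3174 ± 121 CPM with RA, and the immunoproteasome genes to 1650 ± 89.96 CPM with TGFβ + RA and 1452 ± 43.9 CPM with RA (SD, n = 3 each), so the sums moved in opposite directions, and neither overlapped between these media. From 9 libraries 26 members were lower and 2 higher, where 31.6% of all genes were lower and 27.7% higher. The calls of Psme2b and Psmd9 (0.21, edgeR adjusted p = 0.0689) were lost there. The count of higher members was also 2 without TGFβ + RA replicate 3, RA replicate 1 or RA replicate 2.

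The effect of RA differed between cultures with and without TGFβ for 4 members. In the interaction, 2 of 48 were higher (4.17%, where 6.95% of all genes tested were higher), Psmb10 and Psmb8, and 2 were lower (4.17%, where 12.3% of all genes were lower), Psmd1 and Psmd8. Psmd8, a lid subunit, had 97.3, 109.9 and 97.7 CPM with TGFβ + RA and 119, 114 and 117 CPM with TGFβ. Without TGFβ, Psmd8 had 145, 127 and 127 CPM with RA and 127, 109 and 117 CPM with IL-2 + IL-15. Its RA values were the highest and 2 of its TGFβ + RA values the lowest, and the interaction was -0.37 ± 0.10 (log2 ± SE, edgeR adjusted p = 0.0167). From 9 libraries, 9 members were lower in the interaction and 2 higher, where 17.7% of all genes were lower and 12.2% higher. The share of lower genes over all genes thus rose as well, from 12.3% with all libraries. The count of lower members was 8 without RA replicate 3 (where 17.5% of all genes were lower) and 4 without IL-2 + IL-15 replicate 1 (where 13.4% were). That of higher members was 4 without TGFβ + RA replicate 1, and 1, leaving Psmb10, in 8 of the 12 fits that left out a single library.

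Genes that work with the 26S proteasome but fall outside the naming rule were counted in the same way. Of 11 such partners with TGFβ + RA relative to IL-2 + IL-15, 5 were lower and 2 higher, with a median log2 fold change of -0.14, where 32.4% of all genes were lower and 30.8% higher. The deubiquitinases docked on the cap, Usp14 (-0.39 ± 0.05, edgeR adjusted p = 2.50e-05) and Uchl5 (-0.55 ± 0.08, edgeR adjusted p = 6.02e-05), fell, as did Pomp, the maturation factor of the core (-0.35 ± 0.07, edgeR adjusted p = 0.000396), and the cap-bound thioredoxin Txnl1 (-0.31 ± 0.06, edgeR adjusted p = 0.000885). The stress-induced proteasome partner Zfand2a (0.42 ± 0.07, edgeR adjusted p = 0.000223) and the ubiquitin receptor Adrm1 (0.16 ± 0.06, edgeR adjusted p = 0.0205) were the higher ones. In the other comparisons the partners gave 2 higher and 4 lower with TGFβ against IL-2 + IL-15, 1 and 0 with RA against IL-2 + IL-15, 1 and 4 with TGFβ + RA against TGFβ, 1 and 7 with TGFβ + RA against RA, and 0 and 0 in the interaction. The shares over all genes were 20.7% higher and 22.4% lower with TGFβ, 12.4% and 14.3% with RA, 20.3% and 22.7% for TGFβ + RA against TGFβ, 29.4% and 30.8% for TGFβ + RA against RA, and 6.95% and 12.3% in the interaction. No gap between a list and these shares was tested, here or for the lists that follow. Uchl5 had 22.3, 24.3 and 23.8 CPM with TGFβ + RA and 38.5, 31.6 and 33.1 CPM with IL-2 + IL-15, without overlap.

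Of 10 tested genes for transcription factors and processing enzymes known to control proteasome gene expression, 5 were higher and 1 lower with TGFβ + RA against IL-2 + IL-15, where 30.8% of all genes were higher and 32.4% lower. Nfe2l1, whose protein drives the recovery of proteasome genes when the proteasome is inhibited, was called in one comparison, at 0.19 ± 0.06 for RA against IL-2 + IL-15 (edgeR adjusted p = 0.0277), while Ngly1, the deglycosylase that helps activate it, was lower with TGFβ + RA (-0.39 ± 0.06 against IL-2 + IL-15, edgeR adjusted p = 8.54e-05). Nfe2l2, the oxidative stress factor, had 57.6, 68.7 and 64.1 CPM with TGFβ + RA and 55.7, 51.1 and 50.01 CPM with TGFβ. Without TGFβ, Nfe2l2 had 41.6, 36.8 and 44.1 CPM with RA and 48.1, 48.2 and 53.0 CPM with IL-2 + IL-15. RA lowered it without TGFβ (-0.29 ± 0.08, edgeR adjusted p = 0.0154) and raised it with TGFβ (0.28 ± 0.08, edgeR adjusted p = 0.00981), and the interaction was 0.57 ± 0.11 (edgeR adjusted p = 0.00282). Stat3 was higher with TGFβ + RA (0.42 ± 0.04, edgeR adjusted p = 1.32e-06) and TGFβ (0.47 ± 0.04, edgeR adjusted p = 1.21e-06) than with IL-2 + IL-15. Higher and lower counts in the other comparisons were 1 and 0 with TGFβ, 2 and 1 with RA, both against IL-2 + IL-15, 2 and 1 for TGFβ + RA against TGFβ, 4 and 1 against RA, and 1 and 0 in the interaction.

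Among the 11 genes listed for the MHC class I peptide pathway, 7 were higher and 0 lower with TGFβ + RA relative to IL-2 + IL-15. The median log2 fold change of the 11 was 0.23, and over all genes 30.8% were higher and 32.4% lower. The 7 included the peptide-editing chaperones Tapbp (0.65 ± 0.05, edgeR adjusted p = 1.33e-07) and Tapbpl (0.84 ± 0.07, edgeR adjusted p = 3.59e-07), whose changes were of the size of that of Psmb10. With TGFβ against IL-2 + IL-15, 6 were higher and 0 lower, with RA 0 and 3, with TGFβ + RA against TGFβ 3 and 0, against RA 8 and 0, and in the interaction 5 and 0. Over all genes, 20.7% were higher with TGFβ, 14.3% lower with RA, and 29.4% higher with TGFβ + RA against RA. The 3 that RA lowered were Tap1, which shares its start region with Psmb9, H2-K1 (-0.15 ± 0.05, edgeR adjusted p = 0.0457, and 0.0652 with the replicate block) and Nlrc5, the transactivator of class I genes (-0.65 ± 0.12, edgeR adjusted p = 0.00135). Tap1 had 677, 707 and 734 CPM with TGFβ + RA and 660.3, 719 and 696 CPM with TGFβ. Without TGFβ, Tap1 had 474, 477 and 559 CPM with RA and 593, 667 and 675 CPM with IL-2 + IL-15. Its RA values were the lowest, as were those of Psmb9. Of 15 interferon signalling genes, 9 were higher and 2 lower with TGFβ + RA relative to IL-2 + IL-15, 6 and 0 with TGFβ, 2 and 8 with RA, 4 and 6 for TGFβ + RA against TGFβ, 11 and 0 against RA, and 3 and 1 in the interaction. Over all genes 30.8% were higher and 32.4% lower with TGFβ + RA, 20.7% were higher with TGFβ, 14.3% were lower with RA, 20.3% were higher and 22.7% lower for TGFβ + RA against TGFβ, and 29.4% were higher against RA. Irf1, an interferon-induced factor known to bind inducible proteasome promoters, was higher with TGFβ + RA (0.84 ± 0.08, edgeR adjusted p = 5.96e-07) and TGFβ (0.51 ± 0.08, edgeR adjusted p = 0.000142) than with IL-2 + IL-15. The kinase gene Jak2 (1.08 ± 0.06, edgeR adjusted p = 5.90e-09) and the interferon-γ receptor gene Ifngr1 (0.59 ± 0.06, edgeR adjusted p = 7.24e-07) were also higher with TGFβ + RA than with IL-2 + IL-15. Jak2 and Ifngr1 were called for RA alone against IL-2 + IL-15 too, in all 19 alternatives without a minimum fold change, so their calls were not particular to the combination. Stat2 and Ifnar2 were also called for RA alone, but as lower, among the 8 genes of this list that were lower with RA.

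**Figure D4:**
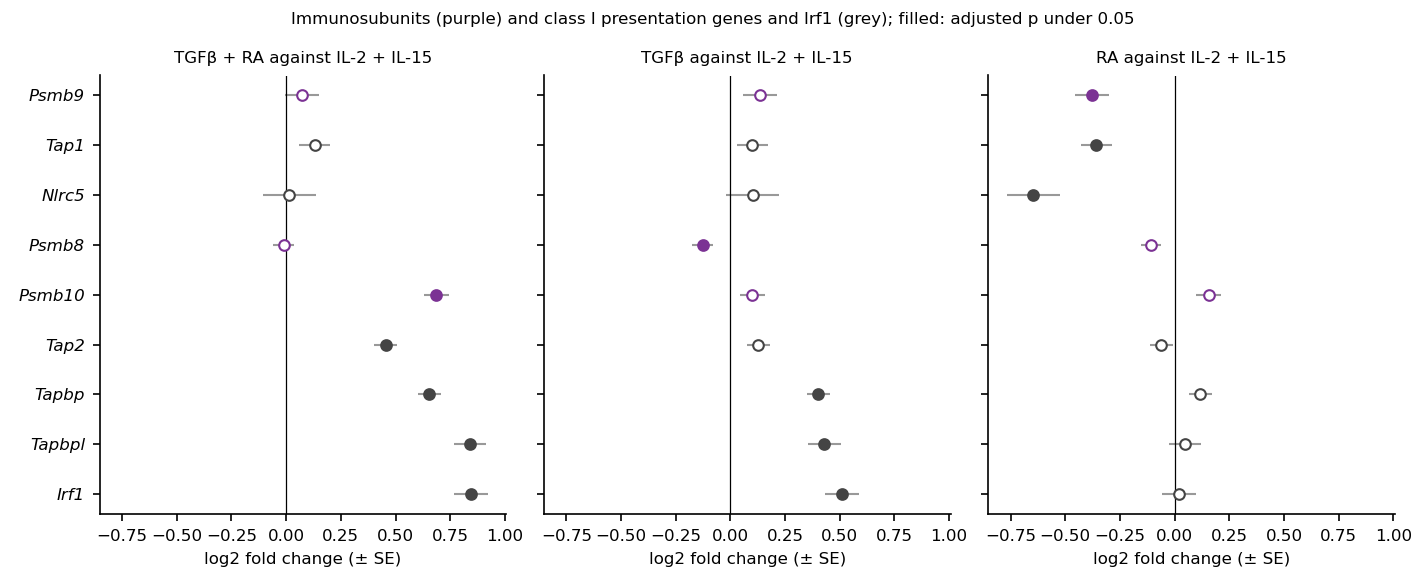
Log2 fold change (horizontal axis, bars ± SE) of the 3 inducible β subunit genes (purple) and of Tap1, Tap2, Tapbp, Tapbpl, Nlrc5 and Irf1 (grey), for TGFβ + RA, TGFβ and RA against IL-2 + IL-15 from left to right; filled points have an edgeR adjusted p under 0.05. Of the genes plotted, Psmb9, Tap1 and Nlrc5 are filled below 0 with RA (H2-K1, also lower, is not plotted), and Psmb10 is the only filled inducible subunit with TGFβ + RA.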

How the data were processed

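RNA from cultured mouse CD8 T cells was made into libraries with a stranded mRNA kit, per the labels' protocols, in 12 samples: 3 each of TGFβ + RA, TGFβ, RA and IL-2 + IL-15. The deposited values were whole-number counts of reads per gene; STAR, featureCounts and GRCm38 are named in the submitters' processing notes, while their versions, settings, strand option and read filters are not given in the sources used here. Gene names and exon lengths came from GENCODE M21, of the same build.

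From those counts, edgeR 4.0.16 (R 4.3.3) kept genes with filterByExpr at a minimum count of 10 (14009 genes, holding at least 99.9% of each library's counts), scaled libraries by TMM (factors 0.958 to 1.03) and fitted 1 mean per medium with 8 residual degrees of freedom. The quasi-likelihood test gave 6 comparisons, the last being the interaction of TGFβ and RA, with Benjamini-Hochberg adjustment over all 14009 genes and a call at an adjusted p below 0.05. The SE is the absolute log2 fold change over the square root of the F statistic. Levels are TMM-scaled counts per 1000000 (CPM), and genes were compared with each other only per kilobase of exon. Ratios were taken within libraries and compared with exact two-sided permutation tests in scipy 1.17.1. Library depths are in the report. The coefficient of variation (CV) that counting alone gives, averaged over the 3 libraries of a medium, was 0.832 to 12.7% over the members. Its median was 2.15%, beside an observed median of 4.11%. It exceeded the observed spread in 36 of 192 pairs of member and medium. Psmc3ip (50 to 168 counts per library) and Psmg1 were among them, but so were members with many reads, such as Psmb1 with TGFβ (4314 to 4727 counts per library). DESeq2 1.42.0 served as an alternative, and so did a fit with the replicate number as a block. Deviations of same-numbered libraries correlated over 0.1 in all 3 pairs only for RA and IL-2 + IL-15 (0.13 to 0.34), so for that comparison blocked values are given where they change a call; the labels do not say what a number marks. The scripts were tested on simulated counts.

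The text gives the catalytic subunits, activators and inhibitor by library, up to 5 called members with the highest and 5 with the lowest fold change per comparison, up to 4 called genes per list and comparison, and the other members by role. Some genes of the lists enter their counts but are not reported here by name. Members, gene lists and tests were chosen with earlier results of these data known. Psma8 and Psmb11, under the count floor, were not analysed further, and promoter sequences were those RefSeq gives.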

Additional observations from a re-analysis of the deposited data

Results flagged for a closer look

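The effect of RA differed between cultures with and without TGFβ for 4 members, by the interaction term of edgeR's quasi-likelihood fit, given here as the log2 effect of RA with TGFβ minus its effect without TGFβ. Psmb10, an inducible catalytic subunit, gave 0.43 ± 0.08 (SE), and all 3 TGFβ + RA libraries lay above the other 9. Psmb8, another inducible catalytic subunit, gave 0.22 ± 0.07, a call that held in 8 of 18 alternatives. Psmd1, the scaffold of the 19S base, gave -0.28 ± 0.07, and Psmd8, a subunit of the lid, gave -0.37 ± 0.10, and both calls held in all 18 alternatives without a minimum fold change.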

How the results depend on the processing

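Besides the test against a minimum change of 1.5-fold, calls were recomputed under 19 alternatives (18 for the interaction). Under the 1.5-fold minimum 1 member was still called, Psmc3ip, lower with TGFβ + RA than with IL-2 + IL-15, and 0 in every other comparison and direction. The 104 values of single members gave 2072 alternative values: 1786 kept direction and side of the threshold, 258 lost a call, 22 gained one and 6 changed sign. With no filter on low counts, 1 member was higher with RA than with IL-2 + IL-15, and with only the compared samples in the fit 1 was higher with RA and 1 with TGFβ. DESeq2's Wald test called 4 higher and 4 lower in the interaction. From the 9 libraries without RA replicate 3, IL-2 + IL-15 replicate 1 and TGFβ + RA replicate 3, 13 were higher with RA and 1 with TGFβ than with IL-2 + IL-15, 2 were higher with TGFβ + RA than with RA, and 9 were lower in the interaction. Shares over all genes from these 9 libraries are given with each comparison in the report. There the uncalled log2 fold changes of Psme2 with TGFβ (-0.016) and Psmb9 with TGFβ + RA (-0.020), each relative to IL-2 + IL-15, changed sign. The log2 ratio differences from the same 9 libraries, against IL-2 + IL-15, were -0.34 for Psmb8 to Psmb5 with RA and -0.061 with TGFβ, -0.62 for Psmb9 to Psmb6 with RA and 0.00076 with TGFβ + RA, and -0.053 for Psmb10 to Psmb7 with RA and 0.74 with TGFβ + RA; Psmb9 to Psmb6 gave -0.033 with TGFβ + RA against TGFβ. Leaving out single libraries gave 0 to 5 members higher with RA, 0 to 1 higher and 6 to 11 lower with TGFβ, 1 to 3 higher with TGFβ + RA, each against IL-2 + IL-15, 2 to 5 higher and 4 to 13 lower with TGFβ + RA against TGFβ, 2 to 6 higher against RA, and 1 to 4 higher and 2 to 8 lower in the interaction. Over the same libraries Psme2 ranged from -0.049 to 0.011 with RA (0.011 without IL-2 + IL-15 replicate 2 and 0.0017 without RA replicate 3) and from -0.016 to 0.043 with TGFβ, Psmb8 from -0.040 to 0.029 with TGFβ + RA, the ratio of Psmb8 to Psmb5 from -0.061 to 0.080 with TGFβ (-0.021 without TGFβ replicate 2), and the ratio of Psmb9 to Psmb6 from -0.044 to 0.11 with TGFβ + RA against TGFβ (-0.033 without TGFβ + RA replicate 3). The causes were not tested. With the replicate number as a block (replicate block), 1 member was higher with TGFβ against IL-2 + IL-15 and 4 were lower in the interaction; deviations of same-numbered libraries correlated by -0.00 to 0.34 and passed 0.1 in 10 of 18 pairs, and each of the 12 libraries correlated best with its own number. The numbers were taken as pairs only between RA and IL-2 + IL-15, where the block changed the calls of Psmb10 and H2-K1 and of no other gene named for that comparison. With Psme2 and Psme2b summed, an alternative chosen after seeing the data, none of 103 values changed its call. The spread that counting alone gives was largest in Psmc3ip, the member with the fewest reads, at 12.7% with RA. It exceeded the observed spread in 36 of 192 pairs of member and medium. Those pairs also held members with many reads, such as Psmb1 with TGFβ (4314 to 4727 counts per library), so their number does not by itself show a limit from depth.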

Other observations

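Of 15 tested genes that supply ubiquitin or carry its substrates to the proteasome, with TGFβ + RA against IL-2 + IL-15, 5 were higher and 7 lower, with a median log2 fold change of -0.01, where 30.8% of all genes were higher and 32.4% lower. Rps27a, which encodes ubiquitin fused to a ribosomal protein, had 585, 649.6 and 645 CPM with TGFβ + RA, 646, 635 and 650.3 CPM with TGFβ, 1134, 1305 and 1149.7 CPM with RA and 1102, 1117 and 1091 CPM with IL-2 + IL-15. Both media with TGFβ lay below both without it, by -0.82 ± 0.06, edgeR adjusted p = 6.60e-08, for TGFβ + RA and -0.78 ± 0.06, edgeR adjusted p = 3.68e-07, for TGFβ against IL-2 + IL-15. The ubiquitin-activating enzymes fell with TGFβ + RA against RA, Uba1 by -0.47 ± 0.05, edgeR adjusted p = 1.43e-06, and Uba6 by -0.48 ± 0.06, edgeR adjusted p = 1.92e-05. Uba1 had 541, 518 and 505 CPM with TGFβ + RA, 556, 546 and 550.0 CPM with TGFβ, 755, 705 and 701 CPM with RA and 585, 577 and 567 CPM with IL-2 + IL-15, RA being the highest, and its interaction was -0.40 ± 0.06, edgeR adjusted p = 0.000768. Sqstm1, an autophagy receptor that also binds the proteasome, was higher with RA than with IL-2 + IL-15 (0.43 ± 0.07, edgeR adjusted p = 0.000315). In the other comparisons these genes gave 1 higher and 5 lower with TGFβ, 3 and 0 with RA, both against IL-2 + IL-15, 4 and 1 for TGFβ + RA against TGFβ, 2 and 7 against RA, and 1 and 2 in the interaction, where the shares of all genes were those given in the report, and no gap to them was tested.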
